A study of Mus musculus with 2 samples.

Results

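The BCL2 family decides whether a cell opens the outer membrane of its mitochondria and dies. Transcripts of 10 of its regulators were examined in MEFs (mouse embryonic fibroblasts), the connective tissue cells that grow out when embryos are put in culture, after growth had been stopped by taking serum away. The genes were Bcl2, Bcl2l1, Mcl1, Bax, Bak1, Bcl2l11, Bid, Bad, Bbc3 and Pmaip1, and every probe set annotated to exactly 1 of them was taken. This gave 29 of the 45101 probe sets on the array and 9 of the 18193 genes named by it. No probe set was annotated to Bax in the table used, so Bax was not analysed here.

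The arrays compared MEFs carrying p27delta51, an allele of Cdkn1b, with wild type MEFs as the control. The protein product of the Cdkn1b gene, p27, holds back the cyclin-dependent kinases that drive cell division. The protein made from this allele lacks an amino-terminal stretch of p27, the part known to hold the site that docks on cyclins. Cells of both genotypes were grown with 10% serum and then kept without serum for 72 h, and RNA of each genotype was hybridised to 1 array. Strain, sex, passage and the number of embryos behind each culture are not given in the sources used here. Sex-linked transcripts, given below, read as in female cells on the p27delta51 array. On the wild type array they read as in male cells, at least in part. This difference in sex cannot be told apart from genotype. With 1 array per genotype no test was possible, no SD between cultures can be given, and every value describes these 2 arrays. In cultured cells read as bulk RNA, fewer cells of a type and less RNA per cell cannot be told apart.

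Proteins of the family fall into 3 classes that act on each other by binding. BCL2, BCL-XL (from Bcl2l1) and MCL1 protect mitochondria, and BAX and BAK form the pores that release cytochrome c. The BH3-only proteins BIM (Bcl2l11), BID, BAD, PUMA (Bbc3) and NOXA (Pmaip1) bind the protective proteins, and some also activate BAX and BAK directly. Fibroblasts deprived of serum receive few survival signals, and BIM is known as a BH3-only protein whose gene is switched on by FoxO transcription factors when growth factor signalling falls.

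A pair of BH3-only genes stood far apart in opposite directions. Bcl2l11 was higher in p27delta51 on all 5 of its probe sets, by 4.72-fold on the brightest. Pmaip1 was at least 18.2-fold lower in p27delta51. The other 7 genes, protective, pore-forming and BH3-only alike, differed by less than 2-fold on their brightest probe set, Bcl2l1 by the most, at 1.73-fold lower in p27delta51. Of the 9 genes 5 lay between the lower and upper quartiles of all kept genes, at log2 differences of -0.33 and 0.51.

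**Figure D1:**
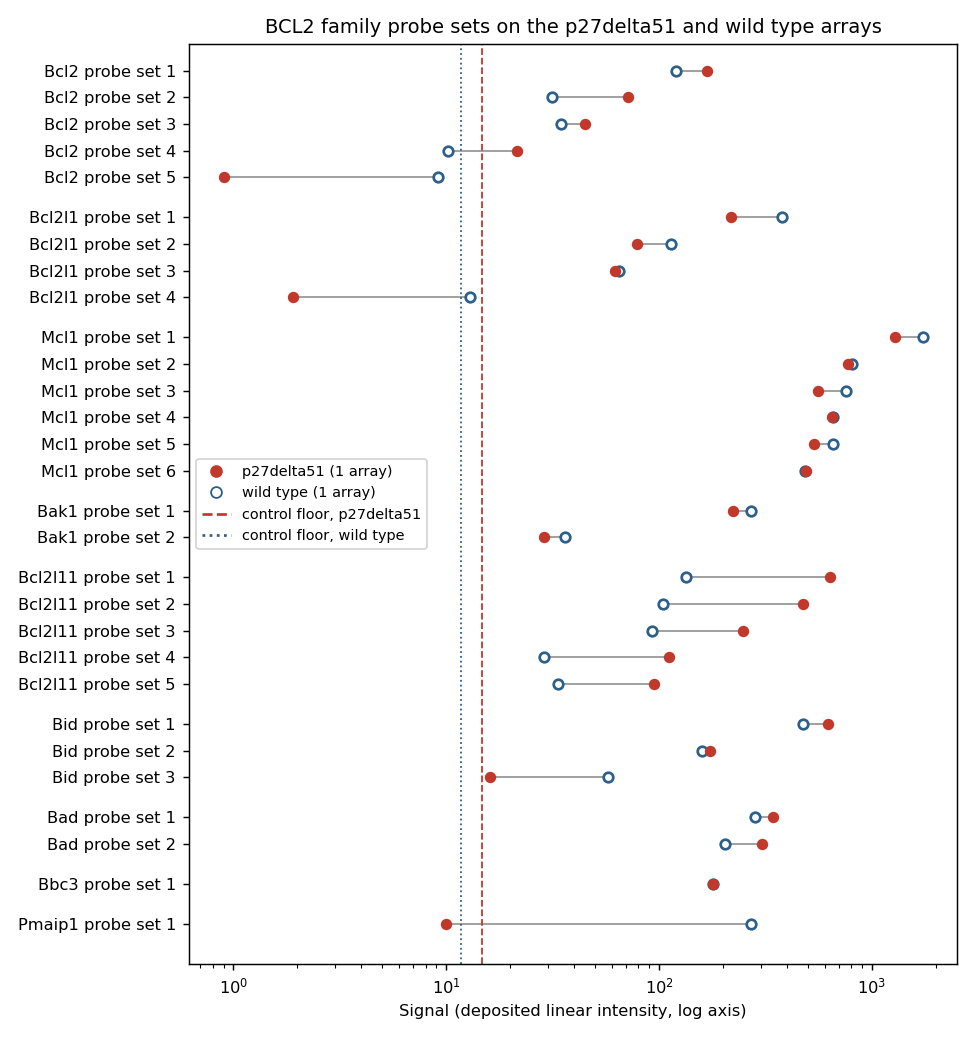
Signal of each of the 29 BCL2 family probe sets (linear intensity as deposited, log axis) on the p27delta51 array (filled red) and the wild type array (open blue), numbered from the brightest down within each gene. Dashed and dotted lines mark the control floors of 14.8 for p27delta51 and 11.8 for wild type. All 5 Bcl2l11 probe sets lie to the right in p27delta51, and Pmaip1 falls below the floor there.

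Values are deposited signals on a linear scale, and differences are on the log2 scale, p27delta51 minus wild type. The control floor, 14.8 for p27delta51 and 11.8 for wild type, is the highest signal of control probe sets for bacterial transcripts that are not meant to be present. A signal at or below it was raised to it, so that a fold against it is a lower bound. A gene was read from its probe set with the highest mean signal and kept when that mean reached 22.2, the median over all probe sets. All 9 genes and 26 of the 29 probe sets passed.

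Counted this way, 1 of the 9 genes passed 2-fold upward in p27delta51 and 1 passed it downward. Among all 11159 kept genes the shares were 10.8% higher and 8.77% lower. A share of 11.1% in each direction is near these backgrounds, so the counts are not a result about the family. Of the 2-fold differences over all genes 55.1% were higher in p27delta51. That share was 29.1% when the arrays were scaled to the spike-in controls, labelled RNAs added in known amounts, which put the median log2 difference of all genes at -0.30. The median log2 difference of the members was -0.0080, against 0.079 over all kept genes.

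Among probe sets, 6 of the 26 that passed were at least 2-fold higher, against 9.96% of all named probe sets that passed, and 2 were at least 2-fold lower, against 8.68%. The 6 comprise the 5 of Bcl2l11 and 1 of Bcl2, and the 2 are Pmaip1 and 1 of Bid. Probe sets of 1 gene read the same RNA and are not independent.

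**Figure D2:**
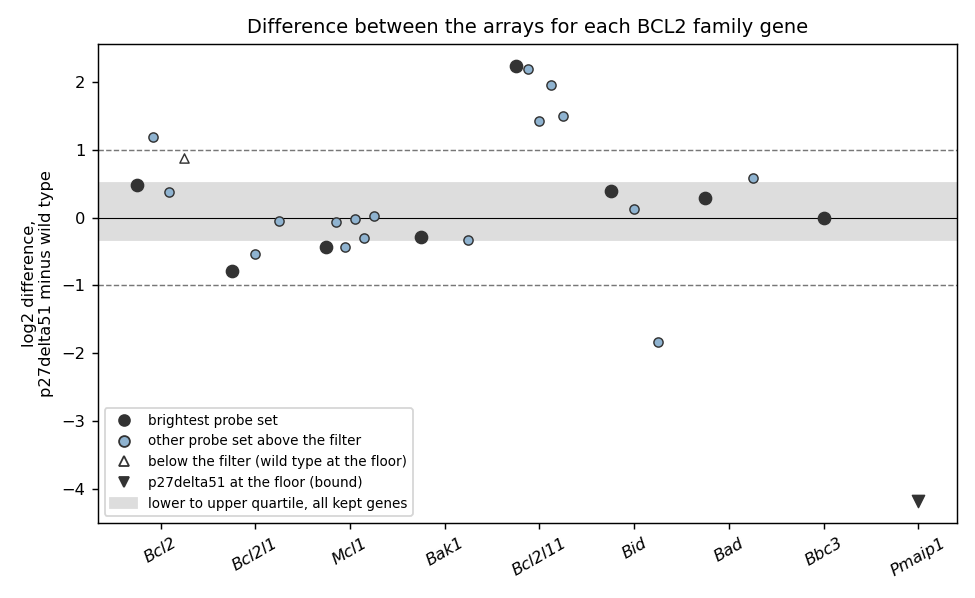
Log2 difference, p27delta51 minus wild type, of each BCL2 family probe set that has one. Dark symbols are the brightest probe set of a gene, dashed lines mark 2-fold, the grey band runs from the lower to the upper quartile of all 11159 kept genes, and triangles are bounds set by the control floor. Bcl2l11 lies above the upper dashed line on every probe set and Pmaip1 far below the lower one, and 1 dim probe set each of Bcl2 and Bcl2l1 is not drawn because it gives no fold.

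Bcl2l11, the BIM gene, gave signals of 633.6 in p27delta51 against 134.2 in wild type on its brightest probe set (1456005_a_at). The next brightest (1435448_at) gave 476.3 in p27delta51 against 103.9 in wild type, which is 4.58-fold higher in p27delta51. The one after it (1435449_at) gave 247.1 in p27delta51 against 92.5 in wild type, which is 2.67-fold higher. On these 3 probe sets both arrays were well clear of their floors, and each was higher in p27delta51.

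The 2 dimmest Bcl2l11 probe sets went the same way from wild type signals near background. Signals were 111.2 in p27delta51 against 28.8 in wild type (1456006_at), and 94.7 in p27delta51 against 33.5 in wild type (1426334_a_at). Their folds of 3.86 and 2.83 rest on a dimmer signal within 3 times of the floor and are approximate. Over the 5 probe sets the log2 difference averaged 1.86 with an SD of 0.38, which is spread between probe sets on 1 pair of arrays and not between cultures. These probe sets have log2 ratios of 1.4 to 2.2 in the table the authors deposited (the authors' deposited table), with 4 increase calls and 1 marginal increase call. Among 351 named genes with at least 5 probe sets that passed the filter, 12 (3.42%) were at least 2-fold higher on all of them, and Bcl2l11 was 1 of these. The brightest probe set placed Bcl2l11 above 97.8% of all kept genes by log2 difference.

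The promoter windows of Bcl2l11 are shown because it is the member that was at least 2-fold higher on every probe set. A window of Bbc3 is shown because it also holds the FoxO letters. Whether these letters bear on the signal of either gene was not tested. Each window is the 250 bases before a RefSeq transcription start, read 5′ to 3′ along the gene's strand from GRCm38.p6. Capitals mark the FoxO motif GTAAACA on either strand.
Bcl2l11 first start, chr2:128125788-128126037, plus strand: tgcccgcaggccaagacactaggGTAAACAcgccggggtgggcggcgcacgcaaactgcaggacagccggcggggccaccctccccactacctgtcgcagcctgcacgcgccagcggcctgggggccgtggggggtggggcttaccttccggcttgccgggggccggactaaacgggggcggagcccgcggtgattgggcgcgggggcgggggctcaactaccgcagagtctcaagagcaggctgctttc
Bcl2l11 second start, chr2:128127325-128127574, plus strand: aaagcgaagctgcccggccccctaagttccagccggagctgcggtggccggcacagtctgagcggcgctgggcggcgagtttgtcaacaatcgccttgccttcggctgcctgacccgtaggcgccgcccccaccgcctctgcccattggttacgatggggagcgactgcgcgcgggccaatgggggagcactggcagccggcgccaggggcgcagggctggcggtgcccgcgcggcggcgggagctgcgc
Bbc3 second start, chr7:16310011-16310260, plus strand: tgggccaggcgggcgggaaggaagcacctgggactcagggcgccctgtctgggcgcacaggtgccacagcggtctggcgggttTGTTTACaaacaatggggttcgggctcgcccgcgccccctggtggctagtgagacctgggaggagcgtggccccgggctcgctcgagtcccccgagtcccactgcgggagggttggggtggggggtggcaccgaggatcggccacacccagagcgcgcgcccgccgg

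The Bcl2l11 match begins 227 bases before the first start, and the Bbc3 match 167 bases before its second start. Among 15 windows of 9 member genes in the RefSeq table, which are all members but Pmaip1 and include Bax, these were the 2 with the FoxO letters. Over all 32851 windows of that length 3.17% held them. The AP-1 letters TGANTCA, searched on both strands like the others, were in 0 of the 15 windows, against 6.75% of all windows. The E-box CACGTG was in 2, upstream of Bax and of the last Bbc3 start, against 6.02% of all windows. The E2F letters TTTNNCGC were in 1, at Bcl2l1, against 4.28%. No window held more than 1 match to the 4 motifs. A match describes letters in a window and was not tested as a binding site.

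Pmaip1 encodes NOXA, which binds MCL1 and is known as a target of p53. Its 1 probe set (1418203_at) gave 10.0 in p27delta51 against 269.1 in wild type. The p27delta51 signal was below the control floor, so the transcript was not detectable there, and the wild type signal was far above its floor. The difference is therefore a bound, at least 18.2-fold lower in p27delta51, at a log2 value of -4.18. A ratio of -4.7 on the log2 scale and a decrease call stand in the authors' deposited table. No second probe set was available to repeat the reading.

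Bbc3, the gene of PUMA, another BH3-only protein known as a p53 target, gave 179.1 in p27delta51 against 180.1 in wild type on its 1 probe set. The signals were nearly the same, with a log2 difference of -0.0080. The authors' deposited table lists a ratio of 0 (log2) and a no-change call. Bbc3 and Pmaip1 thus read very differently on the same 2 arrays, each on 1 probe set, and p53 activity was not tested.

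Bad encodes a BH3-only protein that survival kinases hold inactive by phosphorylation. Its probe sets gave 344.3 in p27delta51 against 283.3 in wild type (1416583_at), and 305.5 in p27delta51 against 203.3 in wild type (1416582_a_at). Both were higher in p27delta51, at log2 differences of 0.28 and 0.59, and both carried an increase call in the authors' deposited table, although scaling to the spike-in controls put the first at a log2 difference of -0.09. An increase or marginal increase call was given to 24.1% of all named probe sets that passed the filter, and a decrease or marginal decrease call to 19.8%.

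Bid encodes the BH3-only protein that caspase-8 cleaves to link death receptors to mitochondria, and its probe sets did not point the same way. The brightest gave 623.9 in p27delta51 against 474.2 in wild type, 1.32-fold higher. The second gave 174.4 in p27delta51 against 159.5 in wild type, 1.09-fold higher. The third (1447873_x_at) gave 16.1 in p27delta51 against 57.3 in wild type, 3.56-fold lower, with the p27delta51 signal close to the floor and a no-change call in the authors' deposited table. The suffix _x_at denotes probe sets with probes that can also match other sequences. Averaged over the 3 probe sets the log2 difference of Bid turned negative, at -0.44, so its direction depends on which are read.

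Bcl2, the founding protective gene of the family, was slightly higher in p27delta51. Its brightest probe set (1457687_at) gave 167.3 in p27delta51 against 120.0 in wild type, 1.39-fold higher, with an increase call in the authors' deposited table. A second (1437122_at) gave 71.4 in p27delta51 against 31.4 in wild type, 2.27-fold higher, and the third gave 44.9 in p27delta51 against 34.5 in wild type, at a log2 difference of 0.38. All 3 lay higher in p27delta51, those 2 dimmer ones from wild type signals within 3 times of the floor. The fourth gave 21.6 in p27delta51 against 10.2 in wild type, below the filter, and the fifth was at or below the floor on both arrays.

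Bcl2l1, from which BCL-XL is made, was lower in p27delta51 on each of the 3 probe sets that passed. The brightest (1420888_at) gave 218.0 in p27delta51 against 376.2 in wild type, 1.73-fold lower, and the authors' deposited table lists a decrease call at -0.5 (log2). The second gave 78.6 in p27delta51 against 113.9 in wild type, 1.45-fold lower. The third gave 62.4 in p27delta51 against 64.9 in wild type, nearly equal, although the authors' deposited table lists it at -0.7 (log2) with a no-change call. The fourth gave 1.9 in p27delta51 against 13.0 in wild type, too near the floors for a fold. After Pmaip1, Bcl2l1 had the most negative log2 difference among the members, at -0.79, and it passed 2-fold, at -1.16, when the arrays were scaled to the spike-in controls.

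Mcl1, whose short-lived protein is the main partner of NOXA, was read by 6 probe sets, all bright. The brightest (1448503_at) gave 1279.4 in p27delta51 against 1728.3 in wild type, 1.35-fold lower, and 2 more without the _x_at suffix were 1.36-fold and 1.23-fold lower. The 3 _x_at probe sets of Mcl1 gave log2 differences of -0.062, -0.019 and 0.016. Readings of the signals thus differed by the kind of probe set, and none of the 6 reached 2-fold. The split is less clear in the authors' deposited table. There 1416880_at, the one that was 1.36-fold lower, is listed at -0.1 (log2) with a no-change call, and the _x_at probe sets at -0.1, -0.1 and 0.

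Bak1, the gene of the pore-forming BAK, gave 222.6 in p27delta51 against 271.6 in wild type on its brighter probe set, 1.22-fold lower. The dimmer gave 28.9 in p27delta51 against 36.3 in wild type, 1.26-fold lower, an approximate value near the floor. Both lay slightly lower in p27delta51, and both carried a no-change call in the authors' deposited table.

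Placed in order of log2 difference, the members ran from Pmaip1 (-4.18) through Bcl2l1 (-0.79), Mcl1 (-0.43), Bak1 (-0.29), Bbc3 (-0.0080), Bad (0.28), Bid (0.40) and Bcl2 (0.48) to Bcl2l11 (2.24). The median SD between probe sets of 1 gene was 0.23 over 5316 genes with at least 2 probe sets past the filter. Mcl1 and Bak1, Bad and Bid, and Bid and Bcl2 were neighbours closer than that. The gap from Bcl2 to Bcl2l11 and the gap from Bcl2l1 to Pmaip1 were many times larger. Scaled to the spike-in controls, the differences of Bcl2, Mcl1, Bak1 and Bbc3 were 0.10, -0.81, -0.66 and -0.38. Of the 26 probe sets that passed, 24 had the same sign in the authors' deposited table and 2 were listed there at 0.

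**Figure D3:**
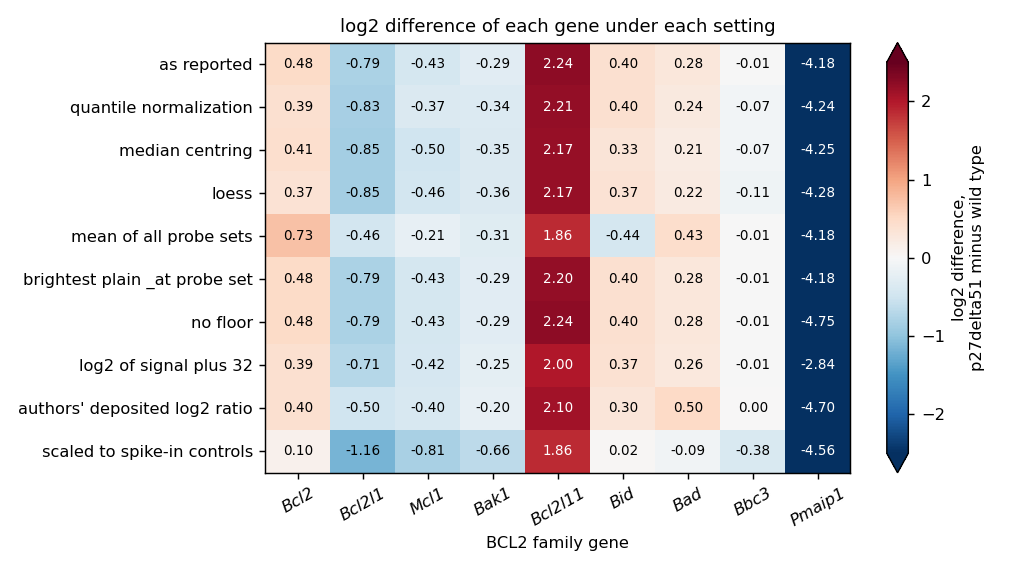
Log2 difference, p27delta51 minus wild type, of each measured BCL2 family gene (columns) as reported and under 9 other settings (rows), with the value printed in each cell and colour from blue (lower in p27delta51) to red (higher). Bcl2l11 stays between 1.86 and 2.24 and Pmaip1 between -4.75 and -2.84, whereas Bid and Bad change sign under 1 setting each.

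Genes of the surrounding pathway were read from 4 lists to place the members. Of 15 further relatives of the family 11 had a probe set of their own and 6 passed the filter, of which 2 were at least 2-fold higher in p27delta51, 0 at least 2-fold lower and 4 between, with a median log2 difference of 0.28. The counts in these lists stand beside 10.8% higher and 8.77% lower among all 11159 kept genes, and nothing particular to a list is read from them. Bmf, another BH3-only gene, gave 190.6 in p27delta51 against 32.7 in wild type, 5.83-fold higher, from a wild type signal within 3 times of the floor. Its second probe set gave 24.7 in p27delta51 against 11.3 in wild type, the wild type signal below the floor, at least 2.09-fold higher and below the filter. Bmf, like Bcl2l11, was thus higher in p27delta51. Bnip3, a BH3-like mitochondrial protein gene known for its response to low oxygen, gave 1082.3 in p27delta51 against 349.7 in wild type, 3.09-fold higher. Bcl2l2, which encodes the protective BCL-W, gave 174.4 in p27delta51 against 281.9 in wild type, 1.62-fold lower. Bok, a relative of Bax and Bak1, was 1.47-fold lower, Bcl2l12 was 1.14-fold lower and Bcl2l13 was 1.68-fold higher.

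Downstream of the mitochondria, Birc5 was the 1 listed gene past 2-fold. Of 20 listed genes of the mitochondrial pathway and the caspases 18 had a probe set, and all 18 passed the filter. Among them 1 was at least 2-fold higher in p27delta51, 0 were at least 2-fold lower and 17 lay between, with a median of 0.20. Birc5 encodes survivin, which is known to be made mainly in dividing cells, and gave 699.3 in p27delta51 against 322.3 in wild type, 2.17-fold higher. Birc3, an inhibitor of apoptosis gene, was 1.62-fold higher and Casp6 1.55-fold higher. Cycs, the cytochrome c gene, gave 2169.4 in p27delta51 against 3346.2 in wild type, 1.54-fold lower. Htra2 and Endog, which encode proteins released from mitochondria, were 1.51-fold and 1.41-fold lower.

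The death receptor pathway, which reaches the family through BID, held 1 gene far higher and 1 far lower. Of 16 listed genes 15 had a probe set and 11 passed, and 9 of these lay within 2-fold, with a median of 0.38. Tnfrsf1b, which encodes a receptor for tumour necrosis factor without a death domain, was read from the brighter of its 2 probe sets. It gave 333.1 in p27delta51 against 46.7 in wild type, 7.13-fold higher. Fas, the receptor for Fas ligand and a known p53 target, gave 86.2 in p27delta51 against 424.2 in wild type on its 1 probe set, 4.92-fold lower. The authors' deposited table lists a smaller difference for Fas, at -1.6 (log2) against -2.30 from the signals, with a decrease call. Cradd, an adaptor gene for caspase-2, was 1.89-fold higher. The signalling adaptor gene Traf2 was 1.74-fold higher, but the authors' deposited table lists it at 0.4 (log2) with a no-change call. Tnfrsf21, another death receptor gene, was 1.19-fold lower.

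Of 31 listed regulators of BCL2 family genes and proteins 28 had a probe set and 27 passed the filter. Among them 2 passed 2-fold upward in p27delta51, 0 passed it downward and 25 lay between, with a median of 0.040. Foxo1, one of the FoxO factor genes, gave 292.2 in p27delta51 against 138.7 in wild type, 2.11-fold higher, and its other 2 probe sets past the filter were 2.48-fold and 2.47-fold higher. Other FoxO genes did not reach 2-fold on their brightest probe sets. Foxo3 gave 186.1 in p27delta51 against 192.4 in wild type, 1.03-fold lower. Foxo4 gave 125.1 in p27delta51 against 96.6 in wild type, 1.30-fold higher. Both carried a no-change call in the authors' deposited table, at a log2 ratio of 0.4, which for Foxo3 is opposite in sign to the signals. Foxo3 has 3 probe sets and Foxo4 has 2, and the others are not given here. Jun, the AP-1 subunit gene that is linked to Bcl2l11 expression in rat neurons, gave 1215.9 in p27delta51 against 135.8 in wild type, 8.95-fold higher. Trp63, of the p53 family, was 1.80-fold higher. Stat3, Myc and Mapk8 (the gene of the kinase JNK1) were 1.57-fold, 1.55-fold and 1.53-fold lower. RNA levels say nothing of the phosphorylation through which several of these proteins act.

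Scaling to the spike-in controls changed which of these pathway genes passed 2-fold. Birc5 and Foxo1 then lay under it, at log2 differences of 0.74 and 0.70. Bcl2l2, Stat3 and Myc passed it downward by a small margin, at -1.07, -1.03 and -1.01, and Cycs lay just past it. Bmf, Bnip3, Tnfrsf1b and Jun were still more than 2-fold higher in p27delta51, at 2.17, 1.25, 2.46 and 2.79, and Fas was lower, at -2.67. The list medians became -0.095 for the relatives, -0.17 for the mitochondrial pathway and caspases, 0.0039 for the death receptor pathway and -0.34 for the regulators.

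**Figure D4:**
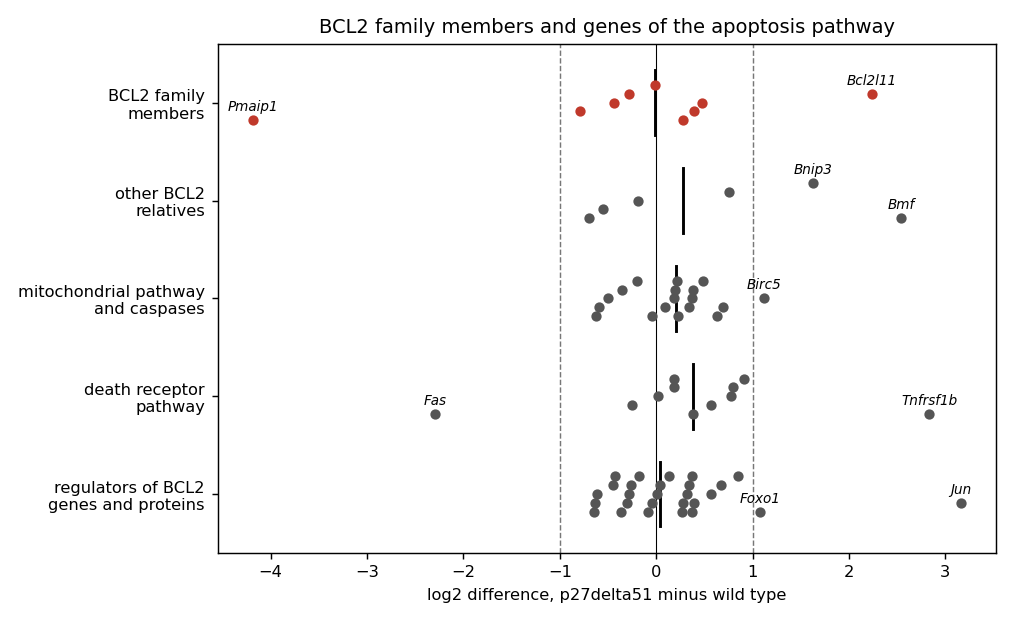
Log2 difference, p27delta51 minus wild type, of every gene past the filter among the BCL2 family members (red) and in 4 lists of the apoptosis pathway (grey). Each point is 1 gene, short vertical bars are medians, dashed lines mark 2-fold and genes beyond them are named. Most genes of each list lie between the dashed lines, with Bcl2l11, Bmf, Bnip3, Birc5, Tnfrsf1b, Foxo1 and Jun to the right and Pmaip1 and Fas to the left.

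The arrays differed in other ways whose part in the results above was not tested. The 2 probe sets of Cdkn1b went opposite ways, at 1016 in p27delta51 against 542.1 in wild type, and at 1.6 in p27delta51 against 62.0 in wild type. Whether either probe set reads the deleted part is not known here. The 18 spike-in control probe sets were all brighter on the p27delta51 array, by a median log2 difference of 0.38, and scaling to them moves every gene above the floors down by that amount. Xist was 33.9-fold higher in p27delta51, approximate because its wild type signal lies near the floor, while the Y-linked Eif2s3y, Uty and Kdm5d were below the floor in p27delta51 and lay above it in wild type.

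Vim, Col1a1, Col1a2 and Fn1, which mark fibroblasts, were bright on both arrays. Of 15 fibroblast markers past the filter, however, 3 passed 2-fold upward in p27delta51 and 3 passed it downward. Among all kept genes the shares were 10.8% and 8.77%, and nothing particular to a marker list is read from these small counts. Prrx1 was 13.2-fold higher in p27delta51 on the brightest of its 6 probe sets. Thy1 was 15.0-fold lower in p27delta51, an approximate value because its p27delta51 signal lies near the floor. Signals of 13 leukocyte markers summed to 298.9 in p27delta51 against 238.3 in wild type, with 5 of them, including Ptprc, at or below the floor on both arrays. Of the 5 that passed the filter, 2 were at least 2-fold higher in p27delta51, Cd14 with 86.9 in p27delta51 against 32.2 in wild type and Coro1a with 36.2 in p27delta51 against 18.0 in wild type, and 0 were at least 2-fold lower. Laptm5 was 1.22-fold higher. Csf1r gave 56.5 in p27delta51 against 65.0 in wild type, and Lyz2 gave 19.7 in p27delta51 against 30.4 in wild type, both lower in p27delta51. Signals of 9 endothelial markers summed to 131.4 in p27delta51 against 161.7 in wild type, with Pecam1 and Cdh5 at or below the floor on both. Of the 2 that passed, Egfl7 gave 51.1 in p27delta51 against 19.1 in wild type, and Erg gave 31.1 in p27delta51 against 60.9 in wild type. Those of 10 epithelial markers summed to 145.8 in p27delta51 against 297.9 in wild type, most of the wild type sum from Krt19, which gave 13.7 in p27delta51 against 176.9 in wild type. Epcam, the other epithelial marker that passed, gave 60.7 in p27delta51 against 26.4 in wild type on an _x_at probe set. The authors' deposited table lists that probe set at 0.1 (log2) with a no-change call. Krt19 was below the floor in p27delta51, and Csf1r was clear of the floor on both arrays. Each of the other named leukocyte, endothelial and epithelial markers past the filter had its dimmer signal within 3 times of the floor.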

How the data were processed

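The deposited values are, per the file headers and their range, 1 intensity per probe set and array on a linear scale with 1 decimal and a trimmed mean of 150.0 on both arrays (2% removed at each end). The submitters' processing notes name RMA and affy with no version, but RMA gives log2 values, so the program behind these intensities is not given in the sources. A second table deposited by the authors holds, per the file headers, a log2 signal ratio, a call and a p-value for the 2 arrays, not the genotypes. The number of arrays limits the precision. The number of unused sample columns was 0.

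Gene names came from the array annotation and were brought up to date with GRCm38.p6 through the gene identifier. Among all probe sets, 34958 had 1 symbol, of which 34754 were found in that gene table, 932 had several and 9211 had none here. The log2 difference used the deposited intensities, with 0.1 in place of 0, raised to the control floor, which came from 27 control probe sets. No value was given where both arrays lay at or below the floor or where raising a signal turned the direction. No test was made. The arithmetic of the steps was checked by putting known shifts, without noise, on the mean signals of both arrays. Such a check cannot show how well real differences are found. Python 3.11.15, pandas 2.3.3 and statsmodels (loess, fraction 0.3) were used.

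All probe sets of the members were named, with Cdkn1b, and from each other list up to 3 kept genes with the largest difference in each direction. Other probe sets of those genes, Foxo3, Foxo4 and a few fibroblast, leukocyte, endothelial and sex-linked genes were named after their values were seen. The members and lists were chosen with earlier results of these data known.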

Additional observations from a re-analysis of the deposited data

How the results depend on the processing

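Over the 13 alternatives to the reported settings, Bcl2l11 was the 1 member past the fold threshold upward in every one. Scaling to the spike-in controls was chosen after seeing the data. Some settings could not change the counts. A kept gene with 1 array at its floor is past 2-fold with or without the floor. Pmaip1 and Bbc3 have 1 probe set each, so averaging or choosing probe sets leaves them as reported. Pmaip1 also passes the filter only through its wild type signal. The count of members at least 2-fold lower was 1 except in 3 settings. It was 0 with a filter at the upper quartile of probe set means, since Pmaip1 falls below that filter, 2 with a 1.5-fold threshold and 2 when scaled to the spike-in controls, Bcl2l1 being added both times. The median log2 difference of the members was -0.38 when scaled to the spike-in controls and lay between -0.21 and 0 under the other settings. Counts over all 11159 kept genes were 1200 higher and 979 lower. They were 752 and 692 with log2 of the signal plus 32, and 681 and 1658 when scaled to the spike-in controls. At 1.5-fold they were 2421 and 1773, and at 3-fold 528 and 553. With the upper-quartile filter only 6875 genes were kept, of which 559 (8.13%) were higher and 461 (6.71%) lower. No paired analysis was possible because each genotype had 1 array. Signals near the control floor limit the folds of Pmaip1, Bmf, 2 Bcl2l11 probe sets, 2 Bcl2 probe sets and 1 probe set each of Bid and Bak1. They also limit those of Xist and Thy1 and of the named markers of other cell types except Csf1r.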
